A study of Mus musculus with 202 samples.

Results

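The genes of cholesterol and fatty acid synthesis were described in single cells from a mouse line of pancreatic ductal adenocarcinoma. They were chosen by symbol, as a list of 27 genes. The table of 28987 genes held 26 of them: 16 enzymes of the sterol branch, 6 enzymes of the fatty acid branch, and 4 genes of regulation and transport. Msmo1 was found by its gene identifier, since the table lists it under an older symbol, and Hmgcs1 was not analysed here. The line is of the KPC type, comes from a liver metastasis of a male mouse, and was grown in medium with 10% serum and used at passages 4 to 6. Both groups are untreated cells of this 1 line, sorted after staining for E-cadherin, the product of Cdh1 and a junction protein of epithelia, into a positive (Ecad+) and a negative (Ecad-) fraction. RNA of 104 Ecad+ and 98 Ecad- single cells was amplified and sequenced in 3 library sets, named here 1 to 3 after the endings of the library names, whose meaning is not stated. Separate cultures or animals are not named in the labels, and each group counts as 1 sample. Differences between the groups therefore have no replicates to be checked against, and none was tested.

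Cells make cholesterol from acetyl-CoA by way of mevalonate, isoprenoids, squalene and lanosterol, and make fatty acids from the same precursor by way of malonyl-CoA. Transcription of both branches is driven by the sterol regulatory element binding proteins: SREBP2, encoded by Srebf2, acts mainly on the sterol branch, and SREBP1, encoded by Srebf1, mainly on the fatty acid branch. When the endoplasmic reticulum membrane holds enough sterol, INSIG proteins keep these factors there as inactive precursors. SREBPs act together with the CCAAT-binding factor NF-Y and the GC-box-binding factor SP1.

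Promoter sequences show a sequence feature that the choice of members did not use. RefSeq promoters (build GRCm38.p6, 250 bases before to 50 bases after a start) were at hand for 20 of the 26 members, as 25 promoters. The NF-Y box CCAAT, searched on both strands, was in 18 of these 25 promoters (72.0%), against 39.3% of the 6767 promoters of genes above the expression floor defined below and 37.4% of all 32851 promoters. Of the 13 sterol enzymes with a promoter, 12 held it, and of the 4 fatty acid enzymes 2 held it. The promoters below are shown because they span the range: Mvk held the most CCAAT boxes (5), Nsdhl and Ebp were among the members with the lowest Ecad- to Ecad+ ratio, Fasn is the fatty acid synthase, Insig1 had the highest ratio, and Acat2, the sterol enzyme with the lowest ratio, held no CCAAT. Each runs 5′ to 3′ on the strand of the gene, and capitals mark CCAAT or its reverse complement ATTGG.
Mvk (chr5:114444019-114444318, plus strand): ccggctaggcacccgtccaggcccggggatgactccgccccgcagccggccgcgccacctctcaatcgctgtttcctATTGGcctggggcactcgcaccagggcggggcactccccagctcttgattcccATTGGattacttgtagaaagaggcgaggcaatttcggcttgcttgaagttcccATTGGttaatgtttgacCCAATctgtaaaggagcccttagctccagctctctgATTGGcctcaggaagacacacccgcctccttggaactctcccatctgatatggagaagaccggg
Nsdhl (chrX:72918271-72918570, plus strand): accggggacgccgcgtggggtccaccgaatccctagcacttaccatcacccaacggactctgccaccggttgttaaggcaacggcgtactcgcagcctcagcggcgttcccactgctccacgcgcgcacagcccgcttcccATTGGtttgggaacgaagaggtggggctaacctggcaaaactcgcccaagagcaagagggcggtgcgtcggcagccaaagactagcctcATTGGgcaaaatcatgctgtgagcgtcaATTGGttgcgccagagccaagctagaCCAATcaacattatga
Ebp (chrX:8193463-8193762, minus strand): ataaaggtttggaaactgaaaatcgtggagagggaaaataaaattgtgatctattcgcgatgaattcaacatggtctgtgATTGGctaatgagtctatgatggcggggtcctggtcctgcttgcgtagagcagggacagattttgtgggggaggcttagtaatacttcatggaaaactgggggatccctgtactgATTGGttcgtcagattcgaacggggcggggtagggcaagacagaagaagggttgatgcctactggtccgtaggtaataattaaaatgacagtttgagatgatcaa
Fasn (chr11:120824498-120824797, minus strand): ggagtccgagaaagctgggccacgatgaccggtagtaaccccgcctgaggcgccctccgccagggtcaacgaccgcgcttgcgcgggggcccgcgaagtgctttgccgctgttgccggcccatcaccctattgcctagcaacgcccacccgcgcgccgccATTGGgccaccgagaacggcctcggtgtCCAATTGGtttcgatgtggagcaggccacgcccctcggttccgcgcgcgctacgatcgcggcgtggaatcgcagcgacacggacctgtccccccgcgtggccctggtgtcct
Insig1 (chr5:28071162-28071461, plus strand): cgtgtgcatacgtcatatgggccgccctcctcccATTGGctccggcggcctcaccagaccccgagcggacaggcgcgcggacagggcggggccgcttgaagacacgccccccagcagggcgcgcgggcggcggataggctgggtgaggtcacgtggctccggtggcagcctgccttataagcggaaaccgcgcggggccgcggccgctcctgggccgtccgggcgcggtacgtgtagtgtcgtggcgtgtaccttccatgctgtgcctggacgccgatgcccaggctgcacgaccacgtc
Acat2 (chr17:12960676-12960975, minus strand): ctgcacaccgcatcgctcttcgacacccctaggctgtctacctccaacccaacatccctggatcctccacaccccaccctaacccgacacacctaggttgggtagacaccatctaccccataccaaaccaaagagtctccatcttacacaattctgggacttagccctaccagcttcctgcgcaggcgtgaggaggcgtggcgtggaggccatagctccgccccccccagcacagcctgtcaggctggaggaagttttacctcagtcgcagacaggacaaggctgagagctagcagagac

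In the Mvk promoter the 5 boxes began 173, 120, 67, 50 and 14 bases before the start. In Fasn, which held 3, a box on each strand overlapped. The sterol regulatory element core, spelled TCACNCCAC and searched on both strands, was in 0 of the 25 member promoters, and in 0.99% of promoters of genes above the floor. These exact letters are rare in windows of this length, and other spellings of the element were not searched. The GC box GGGCGG was in 18 of 25 (72.0%) against 64.5% above the floor, and the E-box CACGTG in 4 of 25 (16.0%) against 10.8%. A match is a run of letters and was not tested for binding.

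Some facts of the libraries bear on every value. The deposited values are on a log2 scale of TPM, transcript abundance scaled to a fixed total per cell, a unit that is relative within a cell, so no read depth or counting error can be given. TPM is scaled per transcript length, and levels of different genes are compared below on that scale. Across all genes 5 library pairs had Pearson correlations of 0.984 to 0.994, against 0.939 for the next pair, and the 2 libraries of a pair were averaged, giving 100 Ecad+ and 97 Ecad- cells. The 13 genes of the mitochondrial genome had a median share of 30.0% of the TPM of an Ecad+ cell and 8.78% of that of an Ecad- cell. This mitochondrial share was under 1% in 40 Ecad- cells and 1 Ecad+ cell. Ecad- libraries under 1% made up 6 of 33 in set 1, 12 of 32 in set 2 and 22 of 33 in set 3. Library numbers were at most 40 in Ecad+ and at least 41 in Ecad-, so an effect tied to this number and the sorted group cannot be told apart. Cdh1 was listed at a median of 35.1 TPM (3.70 to 130) in Ecad+ and 11.5 TPM (0 to 116) in Ecad- cells, where 19 of 97 were at 0, so the ranges overlapped. All 7 epithelial markers were above the floor, and their summed level averaged 4463 TPM in Ecad+ cells against 2295 in Ecad- cells. Immune markers had 1 of 6 above the floor (Cd68, 18.0 TPM), with summed means of 6.44 (Ecad+) and 30.2 TPM (Ecad-), and Ptprc and Adgre1 were at 0 in every cell. Of the adipocyte markers, Cidec alone was above the floor (5.79 TPM), and Plin1, Fabp4 and Lep were at 0 in every cell. The hepatocyte markers had 2 of 5 above the floor, of which Apob was the highest, at 14.8 TPM, and summed means of 28.4 (Ecad+) and 21.2 TPM (Ecad-). The part of these markers and of the mitochondrial share in the differences given next was not tested, apart from the values without low-share cells.

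Most lipid synthesis genes were lower in Ecad- cells. The ratio used is log2 of the Ecad- mean TPM plus 1 over the Ecad+ mean TPM plus 1, which understates differences of low genes. To pass the floor, a gene needed an average of 5 TPM or more across cells and detection above 0 in 10% of cells or more; 7227 genes passed it, and 25 of the 26 members did, all but Elovl6. The ratio was below 0 for 21 of 26 members, against 31.2% of genes above the floor. It was at or below -0.58, a 1.5-fold lower level, for 10 of 26 (background 9.71%), and no member was 1.5-fold higher (background 32.0%). The 10 were Acat2, Mvk, Mvd, Nsdhl, Ebp and Dhcr7 of the sterol branch, Elovl6, Scd1 and Scd2 of the fatty acid branch, and Srebf2. The members' median ratio was -0.42, while the median of all genes above the floor was 0.31, and all 26 members lay below that all-gene median.

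**Figure D1:**
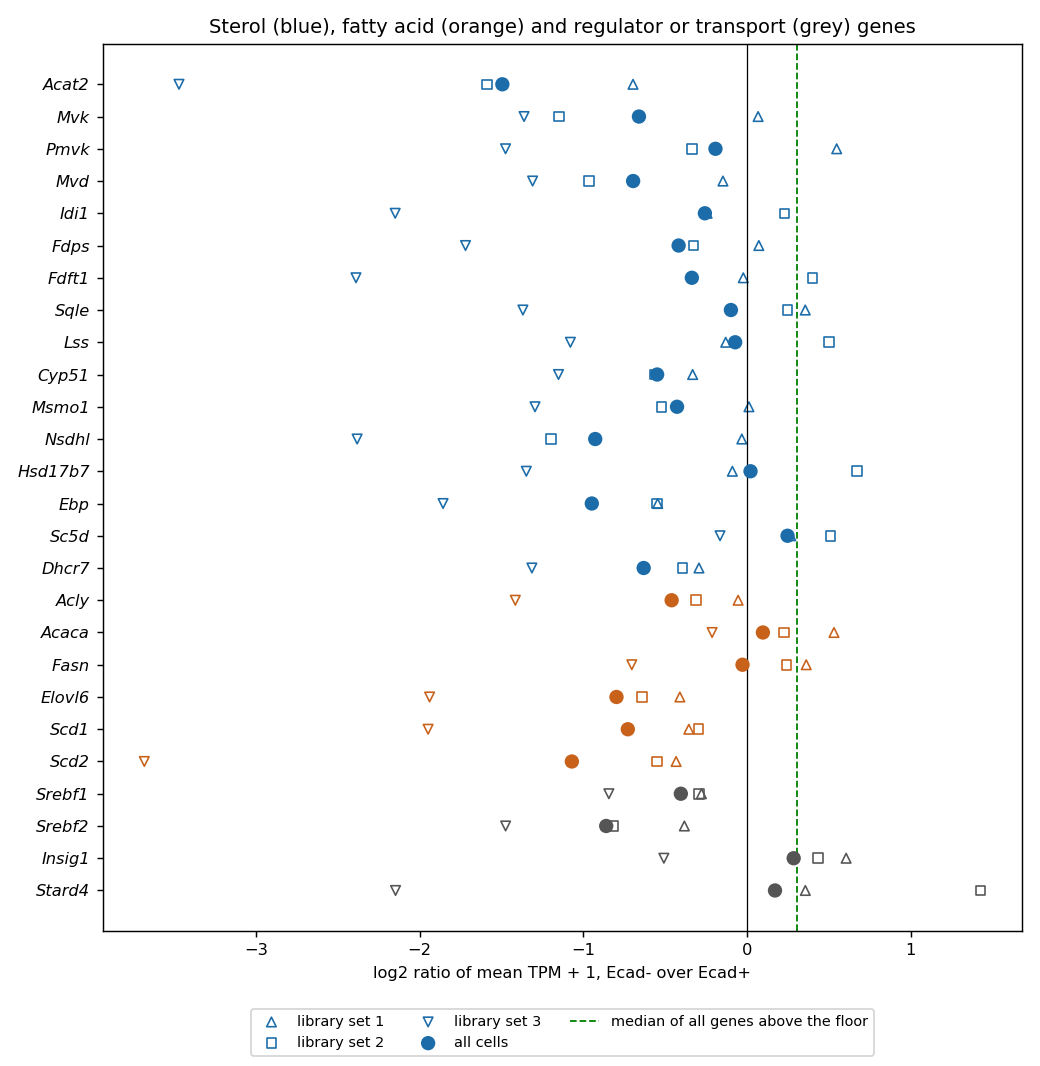
Log2 ratio of mean TPM plus 1, Ecad- over Ecad+, for each of the 26 members (horizontal axis), over all cells (filled circles) and within library sets 1 to 3 (open symbols), coloured by branch. The filled circles run from -1.49 (Acat2) to 0.28 (Insig1), all to the left of the dashed all-gene median of 0.31, and the set 3 symbol is the leftmost of the 3 for every member.

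The size of the difference depended on the library set. Within set 1 the members' median ratio was -0.07, within set 2 -0.32 and within set 3 -1.39, and the all-gene medians were 0.16, 0.44 and 0.26. Below 0 were 16 of 26 members in set 1 (background 38.7%), 16 in set 2 (25.8%) and 26 in set 3 (38.5%). The set 3 ratio was the lowest of the 3 for 26 of 26 members, against 37.2% of genes. The ratio was below 0 in each set for 12 of 26 members (background 14.8%), namely Acat2, Mvd, Cyp51, Nsdhl, Ebp, Dhcr7, Acly, Elovl6, Scd1, Scd2, Srebf1 and Srebf2. It was above 0 in each set for none (background 44.9%). Without set 3, 2 members were 1.5-fold lower (background 7.08%) and the members' median ratio was -0.13.

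The early enzymes of the sterol branch, from acetyl-CoA to farnesyl diphosphate, had a median ratio of -0.54 over 6 genes. Acat2 encodes the cytosolic thiolase that joins acetyl-CoA units at the head of the pathway. It was listed at a median of 55.5 TPM (0.30 to 479) in Ecad+ cells and 7.23 TPM (0 to 169) in Ecad- cells. Ecad- cells were mostly on the low side: 66 of 97 lay under the lower quartile of Ecad+ and 30 were at 0, but the ranges overlapped. Its means were 72.8 and 25.2 TPM, the ratio was -1.49, the lowest of all members, and it was -0.70, -1.59 and -3.47 in sets 1, 2 and 3. The kinases Mvk and Pmvk and the decarboxylase Mvd turn mevalonate into isopentenyl diphosphate. Mean levels in Ecad+ and Ecad- cells were 22.8 and 14.0 TPM for Mvk (ratio -0.66). They were 40.8 and 35.6 TPM for Pmvk (-0.19). For Mvd they were 31.7 and 19.2 TPM (-0.70), and without its highest Ecad+ cell its ratio no longer reached the 1.5-fold line.

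Idi1 encodes the isomerase of isopentenyl diphosphate. Its median was 69.5 TPM (0 to 488) in Ecad+ and 24.5 TPM (0 to 2294) in Ecad- cells. A single Ecad- cell held the value of 2294 TPM; with it the means were 97.6 and 81.5 TPM and the ratio -0.26, and without it the Ecad- mean was 58.4 TPM and the ratio -0.73. Fdps, which makes farnesyl diphosphate, was among the most abundant members, at a median of 245 TPM (9.65 to 1421) in Ecad+ and 127 TPM (0 to 2072) in Ecad- cells. Its distributions overlapped widely, with 54 of 97 Ecad- cells under the lower Ecad+ quartile and 15 above the upper one. The means were 311 and 233 TPM, and the ratio of -0.42 was 0.07, -0.33 and -1.72 in sets 1 to 3.

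The 10 enzymes from squalene onward had a median ratio of -0.38, above that of the early enzymes. The order was the same in set 2 (-0.07 for later and -0.65 for early enzymes) and set 3 (-1.33 and -1.60). It was not kept in set 1 (-0.06 and -0.04). Nor was it kept without cells under 1% mitochondrial share (-0.18 and -0.06) or among cells of 10% to 40% (-0.14 and 0.16). Fdft1, squalene synthase, had means of 50.3 and 39.6 TPM and a ratio of -0.34, which was -0.67 without its highest Ecad- cell (835 TPM). Sqle, squalene epoxidase, was at a median of 29.7 TPM (0 to 201) in Ecad+ and 16.7 TPM (0 to 455) in Ecad- cells. Its means were 37.6 and 35.1 TPM (ratio -0.10), and the ratio was -0.28 without the Ecad- cell at 455 TPM. Lss, lanosterol synthase, had means of 17.3 and 16.4 TPM (-0.07), and a ratio of 0.0014 without its highest Ecad+ cell. In both, some Ecad- cells were as high as the highest Ecad+ cells while the typical Ecad- cell was lower.

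Cyp51, the lanosterol demethylase, was at a median of 59.0 TPM (2.07 to 409) in Ecad+ and 27.5 TPM (0 to 390) in Ecad- cells. The means were 73.5 and 49.9 TPM, and the ratio of -0.55 was below 0 in each set and -0.65 without the highest Ecad- cell. Removal of the C4 methyl groups takes Msmo1, Nsdhl and Hsd17b7. Msmo1 had the highest mean of all members in both groups, at 455 and 338 TPM (ratio -0.43), and without 1 Ecad- cell at 3749 TPM its ratio was -0.59, past the 1.5-fold line. Nsdhl was at a median of 64.4 TPM (0.09 to 300) in Ecad+ and 16.0 TPM (0 to 525) in Ecad- cells. In Ecad- cells 33 of 97 were listed at 0 and 68 lay under the lower Ecad+ quartile, whereas no Ecad+ cell was at 0. Its means were 75.9 and 39.4 TPM, with a ratio of -0.93 that was -0.03, -1.20 and -2.38 in sets 1 to 3. Hsd17b7 had means of 8.72 and 8.87 TPM (0.02), and the Ecad- mean was 5.81 TPM and the ratio -0.51 without 1 cell at 302 TPM.

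Ebp, the sterol isomerase, was at a median of 201 TPM (24.0 to 701) in Ecad+ and 90.5 TPM (0 to 598) in Ecad- cells. Ecad- cells were again mostly on the low side, with 66 of 97 Ecad- cells under the lower Ecad+ quartile and 6 above the upper one. The means were 236 and 122 TPM, and the ratio of -0.95 was -0.55, -0.55 and -1.86 in sets 1 to 3. Sc5d, the desaturase that acts after it, stood apart from Ebp. Its median was 85.8 TPM (0 to 578) in Ecad+ and 80.6 TPM (0 to 551) in Ecad- cells, and the means were 99.8 and 119 TPM (ratio 0.25). The groups overlapped almost fully in Sc5d, and its ratio was -0.09 when cells were rescaled without mitochondrial genes. Dhcr7, which reduces 7-dehydrocholesterol to cholesterol, was at a median of 7.92 TPM (0 to 107) in Ecad+ and 2.66 TPM (0 to 67.9) in Ecad- cells. Its means were 14.2 and 8.78 TPM, and its ratio of -0.63 was -0.54 without its highest Ecad+ cell.

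**Figure D2:**
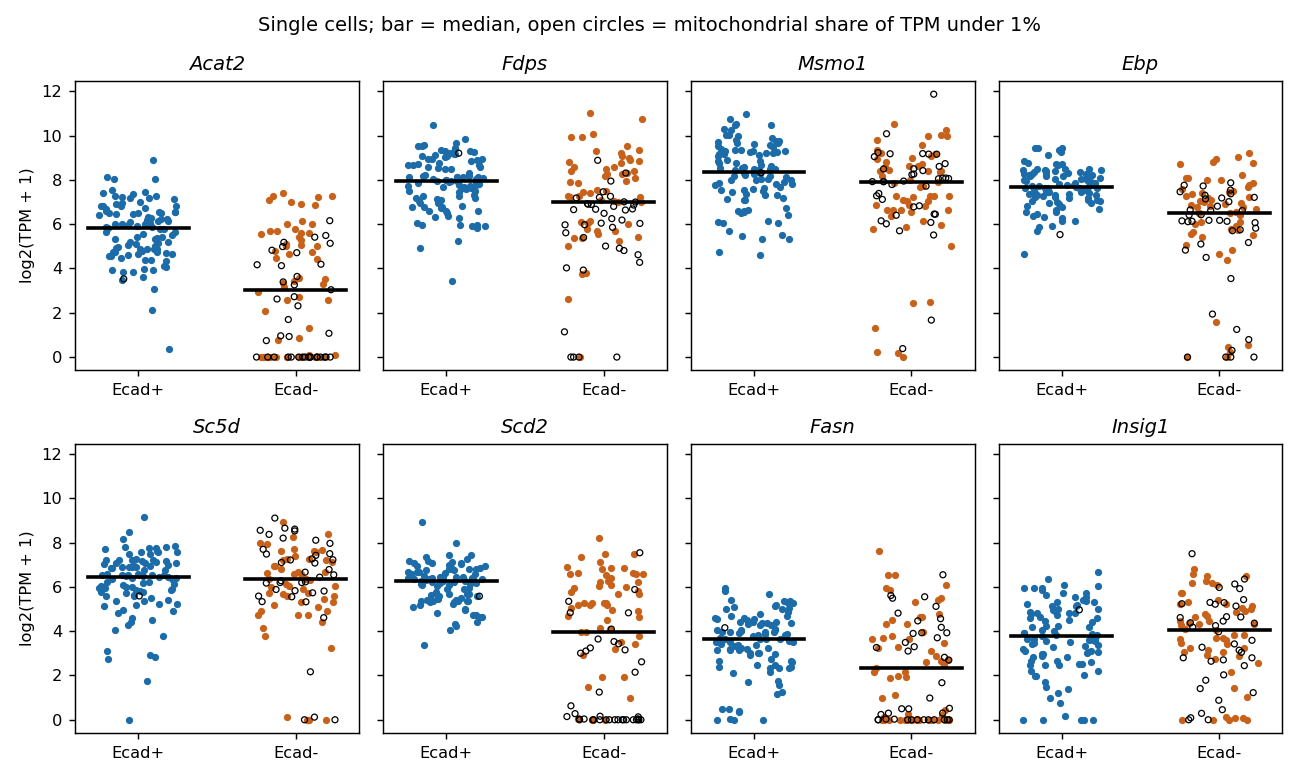
Levels of 8 members in single cells, as log2(TPM + 1), in the 100 Ecad+ and 97 Ecad- cells. Bars are medians, and open circles are cells with a mitochondrial share under 1%. Acat2, Ebp and Scd2 sit lower in Ecad- cells, while Sc5d and Insig1 overlap across nearly the whole range. Ecad- cells at 0 number 30 for Acat2 and 19 for Scd2, but 6 each for Ebp, Sc5d and Insig1.

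In the fatty acid branch, the ratios over all cells were lower for the 3 enzymes that modify finished chains than for the 3 that build them, an order that was not kept among cells with a mitochondrial share of 10% to 40%, where Acaca was lowest (-0.69). Acly, which makes cytosolic acetyl-CoA from citrate, was at a median of 15.1 TPM (0.02 to 104) in Ecad+ and 5.19 TPM (0 to 83.4) in Ecad- cells. Its means were 17.1 and 12.2 TPM, with a ratio of -0.46 that was below 0 in each set. Acaca, the acetyl-CoA carboxylase that makes malonyl-CoA, was low, at a median of 0.65 TPM (0 to 154) in Ecad+ and 0 TPM (0 to 128) in Ecad- cells. A few high cells carried its means of 5.07 and 5.49 TPM (0.10), and the sign of that ratio turned without the highest Ecad- cell (-0.22). Fasn, the fatty acid synthase, was at a median of 11.7 TPM (0 to 61.4) in Ecad+ and 4.05 TPM (0 to 194) in Ecad- cells. Its means were 15.0 and 14.7 TPM (-0.03), and 54 of 97 Ecad- cells were under the lower Ecad+ quartile. Without the Ecad- cell at 194 TPM the Fasn ratio was -0.21, and without the highest Ecad+ cell it was 0.015.

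Elovl6 lengthens palmitate to stearate, and Scd1 and Scd2 introduce the double bond of oleate and palmitoleate. Elovl6 was at a median of 4.89 TPM (0 to 30.6) in Ecad+ and 0.08 TPM (0 to 19.1) in Ecad- cells, with means of 5.92 and 2.98 TPM (ratio -0.80). Scd1 was at a median of 21.7 TPM (0.53 to 133) in Ecad+ and 11.2 TPM (0 to 124) in Ecad- cells, with means of 26.5 and 15.6 TPM (-0.73). Scd2 was the most abundant enzyme of this branch and was at a median of 76.6 TPM (9.33 to 481) in Ecad+ and 14.7 TPM (0 to 298) in Ecad- cells. No Ecad+ cell was at 0 for either desaturase, while 15 Ecad- cells were for Scd1 and 19 for Scd2, and 68 of 97 Ecad- cells were under the lower Ecad+ quartile of Scd2. The Scd2 means were 81.7 and 38.4 TPM, and the ratio of -1.07 was -0.43, -0.55 and -3.68 in sets 1 to 3. Scd1 and Scd2 lie in the same region of chromosome 19. Their transcripts share 253 of their 31-base words, so part of their reads could be split between them. With Scd3, Scd1 shares 285 such words and Scd2 264.

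Among the regulators, Srebf2 was lower and Insig1 was not. Srebf2 was at a median of 6.53 TPM (0.08 to 43.5) in Ecad+ and 2.20 TPM (0 to 28.6) in Ecad- cells, with 62 of 97 Ecad- cells under the lower Ecad+ quartile. Its means were 7.90 and 3.90 TPM, and the ratio of -0.86 was -0.38, -0.82 and -1.47 in sets 1 to 3. Srebf1 was at a median of 10.9 TPM (0 to 189) in Ecad+ and 1.66 TPM (0 to 158) in Ecad- cells, with means of 17.4 and 12.9 TPM (-0.40). In 34 Ecad- cells and 1 Ecad+ cell Srebf1 was listed at 0. Insig1, itself a target of SREBPs, was at a median of 12.7 TPM (0 to 99.5) in Ecad+ and 15.5 TPM (0 to 180) in Ecad- cells. Its means were 20.2 and 24.8 TPM, and the ratio of 0.28, the highest of all members, was 0.61, 0.43 and -0.51 in sets 1 to 3. Stard4, a carrier of cholesterol between membranes, was at a median of 29.4 TPM (0 to 368) in Ecad+ and 16.2 TPM (0 to 702) in Ecad- cells. Its means were 42.2 and 47.6 TPM (0.17), but the ratio was 0.36 and 1.43 in sets 1 and 2 and -2.15 in set 3, and it was -0.05 without the highest Ecad- cell.

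The contrast between the branches was small. The median ratio was -0.42 over 16 sterol enzymes and -0.59 over 6 fatty acid enzymes, a difference of 0.17. Lower by 1.5-fold were 6 of 16 and 3 of 6 (background 9.71%), and below 0 in each set 6 of 16 and 4 of 6 (background 14.8%). The sterol and fatty acid medians were -0.06 and -0.21 in set 1, -0.37 and -0.30 in set 2, and -1.37 and -1.68 in set 3. The order of the branches was therefore not the same in every set, and it turned under 3 of the alternative settings given in the closing section. Rescaling each cell without mitochondrial genes moved the all-gene median from 0.31 to 0.00 and the branch medians to -0.67 and -0.85, and it left 15 of 26 members 1.5-fold lower (background 16.5%).

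The median cell differed more than the mean. Fewer genes were above 0 in Ecad- cells, at 8672 ± 1299 (SD, n = 97) against 10382 ± 815 (SD, n = 100) in Ecad+ cells, and with means of log2 values the median ratio of all genes above the floor was itself -0.28 and that of the members -1.26. The part of this gap in the scores and in the counts of cells at 0 was not tested. A score per cell, the mean of log2(TPM + 1) over a branch after rescaling without mitochondrial genes, had a sterol median of 5.99 in Ecad+ (quartiles 4.94 and 6.66) and 3.83 in Ecad- cells (3.09 and 5.35). The fatty acid score had medians of 4.17 and 2.49. For the sterol score 66 of 97 Ecad- cells lay under the lower Ecad+ quartile and 16 lay above the Ecad+ median. For the fatty acid score these counts were 77 and 16. By library set, the sterol score had medians of 6.11, 6.07 and 5.40 in Ecad+ and 5.40, 4.27 and 2.97 in Ecad- libraries. The fatty acid score had medians of 4.25, 4.16 and 4.05 in Ecad+ and 3.49, 2.75 and 1.52 in Ecad- libraries. In both branches the sets of Ecad- libraries thus differed from each other by more than the sets of Ecad+ libraries did.

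**Figure D3:**
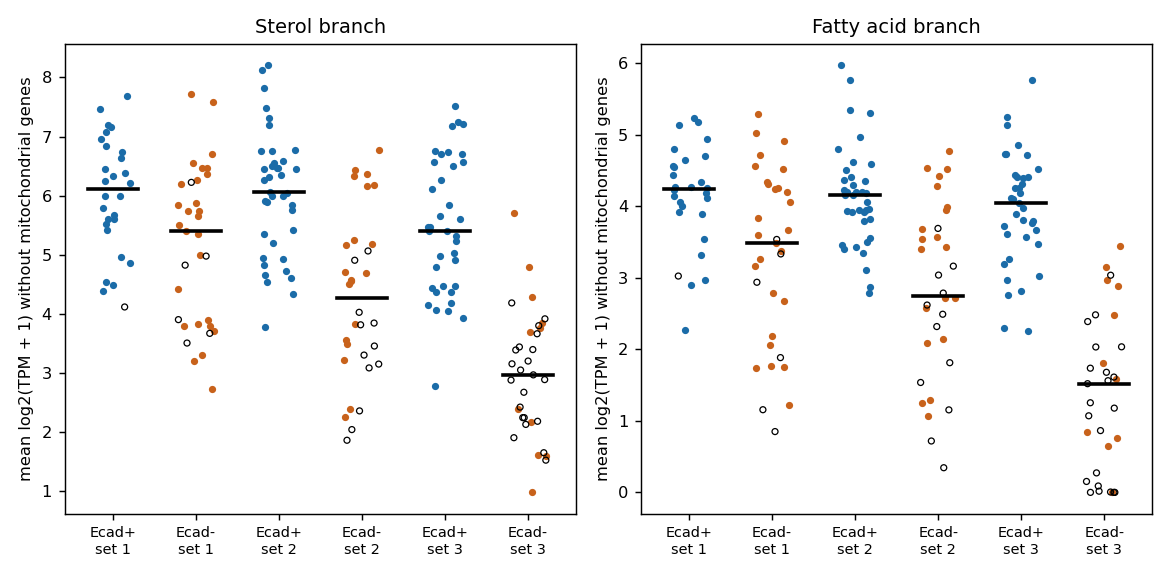
Sterol (left) and fatty acid (right) score per library, as mean log2(TPM + 1) without mitochondrial genes, by group and library set. Bars are medians, and open circles are libraries with a mitochondrial share under 1%. The Ecad- medians run from 5.40 in set 1 to 2.97 in set 3 for the sterol score, and most open circles lie in Ecad- set 3.

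Median lipid synthesis scores were lower in Ecad- cells with a mitochondrial share under 1% than in the other Ecad- cells. The sterol score had a median of 3.26 in the 40 Ecad- cells with a mitochondrial share under 1% and 4.79 in the other 57. The fatty acid score had medians of 1.59 and 3.40. Of the 40 cells, 37 lay under the lower Ecad+ quartile of the sterol score, and all 40 under that of the fatty acid score. The share of 6 Ecad- cells lay between 0.5% and 2%, near the line at 1%. The number of genes above 0 was close, at a mean of 8658 ± 1149 (SD, n = 40) and 8682 ± 1404 (SD, n = 57).

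Per gene, the levels of the 40 cells over those of the 57, rescaled without mitochondrial genes, had a median log2 ratio of -1.26 over the members, against -0.02 over all genes above the floor. It was below 0 for 24 of 26 members (background 51.2%) and at or below -0.58 for 22 (background 23.0%). The lowest ratios were those of Stard4 (-3.03), Fdft1 (-2.82) and Scd2 (-2.78). Exceptions were Acaca (0.55) and Sc5d (0.15), and Msmo1 (-0.21), the most abundant member, differed little. Within sets 1, 2 and 3 the members' median was -0.88, -1.40 and -0.50, and the all-gene median was -0.15, 0.01 and 0.16.

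Without the cells under 1%, the members' median difference between Ecad- and Ecad+ cells was smaller over all sets and within set 2, but not within sets 1 and 3. The members' median ratio was -0.22 over all sets, against 0.14 for all genes, and 3 of 26 members were 1.5-fold lower (background 8.51%). These were Acat2 (-1.03), Ebp (-0.66) and Srebf2 (-0.71). Within sets 1 and 2 the members' median was -0.13 and -0.07, and within set 3, where 11 Ecad- libraries remained, it was -1.49. The all-gene medians within sets 1, 2 and 3 were 0.09, 0.23 and -0.10, against 0.16, 0.44 and 0.26 with all cells. The all-gene median thus also fell in each set, so the members' medians alone do not give their change against other genes. Among cells with a mitochondrial share of 10% to 40%, which were 69 Ecad+ and 38 Ecad- cells, the members' median was -0.14 and 5 were 1.5-fold lower (background 11.0%).

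Pooled over the sets, both branches varied with the mitochondrial share across Ecad- cells, and within sets mainly in set 2. These are Spearman correlations across cells of 1 sample, given as descriptions. The sterol score and the share had a correlation of 0.45 in 97 Ecad- and 0.11 in 100 Ecad+ cells. For the fatty acid score the values were 0.45 and 0.06, and the latter was -0.35 with TPM as deposited. Within sets 1, 2 and 3 the Ecad- values were 0.04, 0.48 and 0.10 for the sterol score and 0.02, 0.43 and 0.17 for the fatty acid score. In Ecad- cells the share falls into a low and a high range with few cells between them. Within the 57 cells of at least 1% the correlations were 0.09 for the sterol and 0.02 for the fatty acid score, and within the 40 cells under 1% they were 0.01 and -0.11. The correlation was thus near 0 within either range. Per gene, 14 of 26 members reached a correlation of at least 0.3 with the share across Ecad- cells (background 9.11%), led by Scd2 (0.64), and 1 of 26, Idi1 (0.32), did across Ecad+ cells (background 8.32%).

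The scores were also set against the cell cycle. A G2/M score was made in the same way from 25 mitotic genes. Its correlation with the sterol score was 0.40 in Ecad- cells and 0.09 in Ecad+ cells, and with the fatty acid score 0.34 and 0.06. Within sets 1, 2 and 3 the Ecad- values were 0.13, 0.27 and 0.28 for the sterol and 0.06, 0.13 and 0.22 for the fatty acid score, below the pooled values. The Ecad+ values were 0.28, 0.08 and -0.16 for the sterol and 0.33, 0.05 and -0.19 for the fatty acid score, so in set 1 they were above those of Ecad- cells, opposite to the pooled order. Adjusted for the number of genes above 0, which had a correlation of 0.35 with the sterol score in Ecad- cells, the pooled Ecad- values were 0.29 and 0.20. Of the members, 8 of 26 reached 0.3 with the G2/M score across Ecad- cells (background 10.3%), with Acat2 (0.43) and Idi1 (0.42) highest. Across Ecad+ cells 0 of 26 did (background 16.1%), and Scd1 (-0.32) and Insig1 (-0.26) were the lowest. The difference between the groups in these correlations was not tested.

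**Figure D4:**
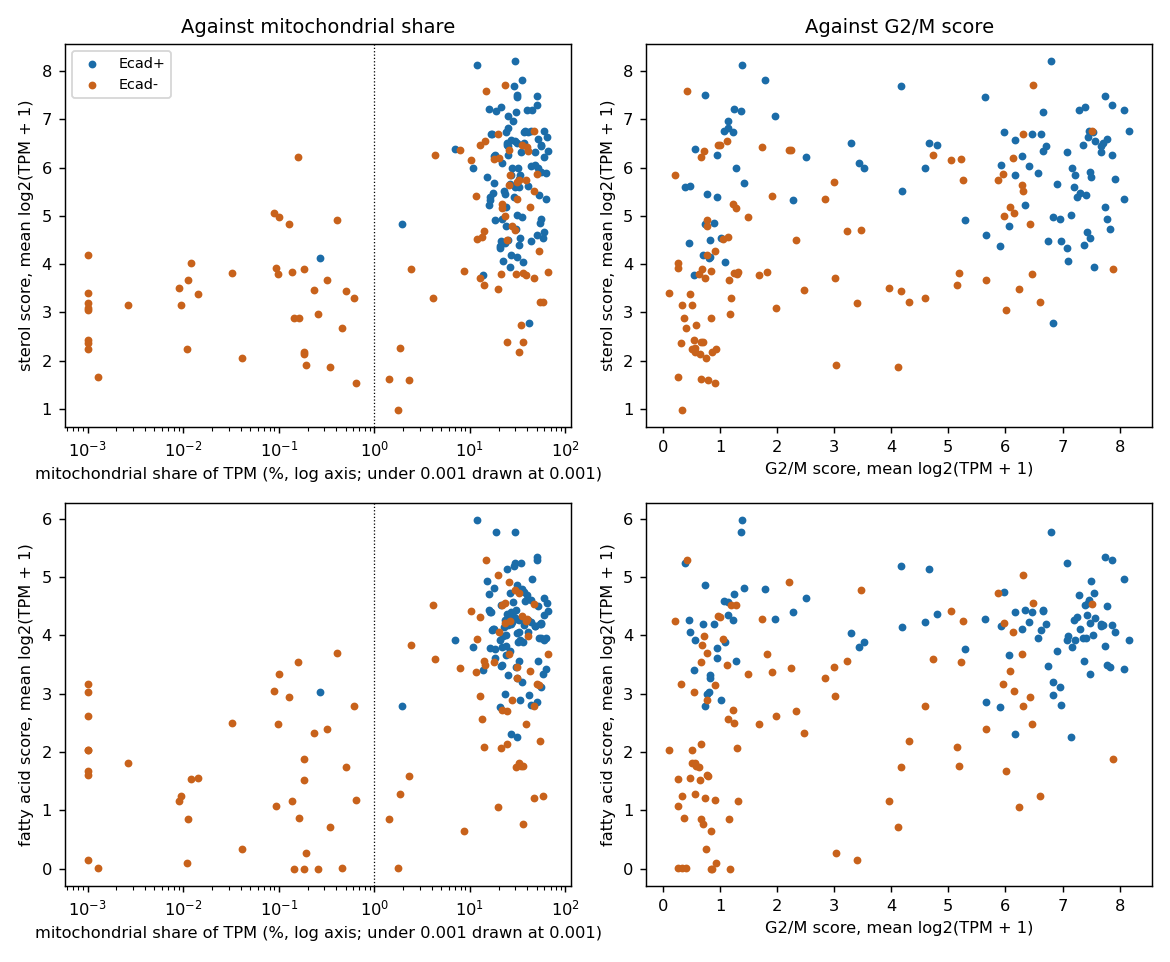
Sterol (top) and fatty acid (bottom) score per cell, as mean log2(TPM + 1), against the mitochondrial share of TPM (left, log axis, dotted line at 1%) and the G2/M score (right), for 100 Ecad+ and 97 Ecad- cells. Ecad- cells left of the dotted line lie low in both scores, and within Ecad+ cells neither score follows the horizontal axis (correlations of 0.06 to 0.11).

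The sterol enzymes varied together from cell to cell. The median pairwise Spearman correlation of the 16 sterol enzymes was 0.55 across Ecad+ cells, against 0.02 over all pairs of genes above the floor, and it was 0.49, 0.63 and 0.50 within sets 1 to 3. The closest pairs were Fdft1 with Msmo1 (0.79), Fdps with Msmo1 (0.78) and Idi1 with Fdps (0.75). Across Ecad- cells the median was 0.37, against 0.05 over all pairs, and 0.40, 0.27 and 0.18 within sets. The 6 fatty acid enzymes had a median of 0.20 in Ecad+ and 0.31 in Ecad- cells, and pairs across the branches had 0.37 and 0.33. Within sets 1 to 3 the fatty acid values were 0.13, 0.37 and 0.15 (Ecad+) and 0.28, 0.22 and 0.33 (Ecad-). Across the branches they were 0.24, 0.51 and 0.27 (Ecad+) and 0.34, 0.26 and 0.18 (Ecad-). Both scores together had a correlation of 0.69 in Ecad+ and 0.80 in Ecad- cells. Within sets it was 0.65, 0.84 and 0.51 (Ecad+) and 0.74, 0.75 and 0.53 (Ecad-). For these measures the order of the groups was thus not the same in every set. Pairs share the library and its number of genes above 0.

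Single members departed from this pattern. Scd2 was the member closest to the others in Ecad- cells, with a median correlation of 0.54 over the 25 other members, and its pairs with Idi1 (0.74), Fdft1 (0.74) and Fdps (0.72) were the 3 highest. In Ecad+ cells its median was 0.37. The values of single members given here are pooled over the library sets and over both ranges of the mitochondrial share. Across Ecad- cells this share itself correlated with Scd2 (0.64), Fdps (0.52), Idi1 (0.50) and Fdft1 (0.50). The part of the sets and the share in these pairs was not tested. Srebf1 had a median of 0.00 with the other members in Ecad+ cells and 0.29 in Ecad- cells. Acaca was weakly tied in both groups (0.11 and 0.17), where most of its values were near 0. Insig1 had a median of 0.43 with the other members in Ecad+ cells, and 0.66 with Fdps.

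**Figure D5:**
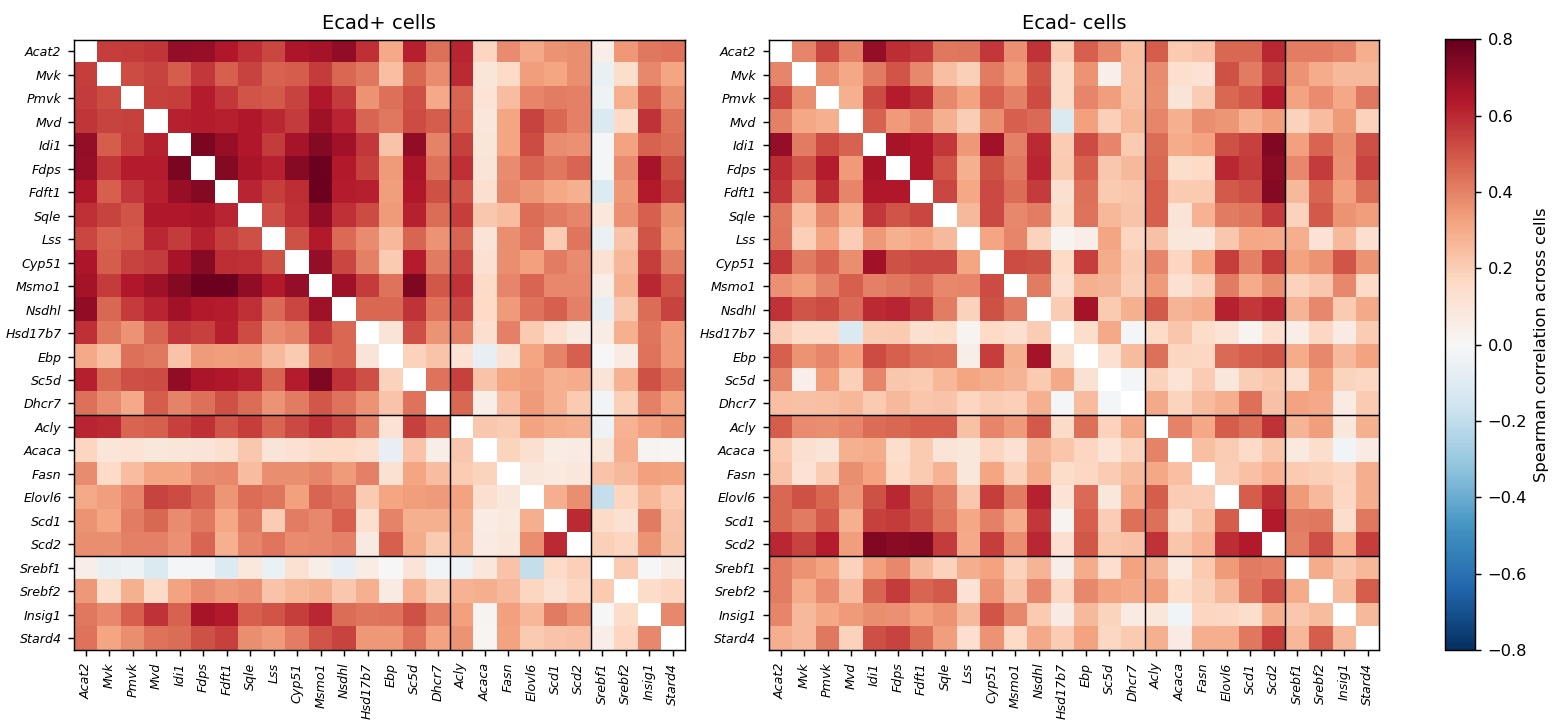
Spearman correlation of each pair of the 26 members across 100 Ecad+ cells (left) and 97 Ecad- cells (right), from -0.8 (blue) to 0.8 (red); black lines part the sterol, fatty acid and regulator genes. The sterol block is the darkest area in Ecad+ cells (median 0.55), the Srebf1 row is near white there (median 0.00), and the Scd2 row is the darkest in Ecad- cells (median 0.54).

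Outside the list, the genes most like the sterol score, by the smaller of the correlations in the 2 groups, were led by 0610007P14Rik. This gene, also named Erg28, encodes a membrane protein that holds the C4-demethylation enzymes together. Its correlation was 0.65 in Ecad+ and 0.58 in Ecad- cells. Also close were Gm13502 (0.56 and 0.71), Pcyt2, an enzyme of phosphatidylethanolamine synthesis (0.53 and 0.52), and the tubulin gene Tuba1a (0.51 and 0.54). For the fatty acid score the first was Cyb5b, a cytochrome b5 (0.54 and 0.52), and 0610007P14Rik, Tuba1a and Gm13502 were also close. Gm13502 is a processed pseudogene on chromosome 2, and all 654 of its 31-base words also occur in Idi1 transcripts. Of the 3547 words of Idi1, 18.4% occur in Gm13502. Reads listed for Gm13502 may thus come from Idi1, while most of the Idi1 sequence is absent from the copy. Summed, the means of Idi1 and Gm13502 were 124 and 97.4 TPM, a ratio of -0.35. Fdft1 transcripts share 744 words with annotated transcripts of its neighbour Ctsb (59.8 and 134 TPM), and Acat2 shares 339 with Tcp1 (400 and 361 TPM). Cyp51 shares 136 with Akap9 (19.9 and 29.8 TPM), and Dhcr7 146 with D10Wsu102e (4.23 and 3.20 TPM). Larger overlaps were those of Acaca with Gm5182 (5412), Acat2 with Acat3 (1123) and Fdps with Gm43738 (1068). These 3 partners were unlisted or averaged under 1 TPM. The library chemistry does not mark strand, so the values of the members named here are uncertain to that extent.

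A wider list of 35 other genes of sterol and fatty acid metabolism had 25 above the floor, with a median ratio of -0.40. Of these 25, 7 were 1.5-fold lower (background 9.71%) and 3 were 1.5-fold higher (background 32.0%). In each library set 15 were below 0 (background 14.8%) and 4 above 0 (background 44.9%). The lower ones included Fads2, the desaturase of polyunsaturated chains (10.5 and 1.75 TPM, ratio -2.07), and the sterol reductase Tm7sf2 (48.5 and 21.0 TPM, -1.17). Slc25a1, the mitochondrial citrate carrier, had means of 169 and 77.1 TPM (-1.12), and Acsl5, which activates fatty acids, 50.4 and 23.7 TPM (-1.06). Higher were Npc1, which exports cholesterol from lysosomes (8.29 and 22.4 TPM, 1.33), and Ggps1, which makes geranylgeranyl diphosphate from farnesyl diphosphate (9.00 and 19.1 TPM, 1.00). The Fads2 and Npc1 ratios kept their sign in each set, at -1.47, -2.24 and -2.94 and at 0.72, 0.94 and 2.10.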

How the data were processed

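Cells were captured on a Fluidigm C1 and amplified with SMARTer chemistry, and libraries were made with Nextera XT, per the labels' protocols. FastQC 0.11.5, kallisto and build mm10 are named in the submitters' processing notes, while the transcript index and cell filters are not given in those sources. A single table of log2 values was deposited by the authors. Raised to the power of 2, less 1, each library summed to 933711 to 987134, so values were read as log2(TPM + 1), and depth is unknown. Columns of group means, fold changes and p-values in that table were not used. Group levels were arithmetic means of TPM over cells; ratios used a pseudocount of 1 TPM. A value of 0 is a listed 0 and may be a failed estimate. Library pairs over a Pearson correlation of 0.97 were averaged, but kept apart within library sets. Scores used TPM rescaled without mitochondrial genes. Shared 31-base words were counted in GENCODE M21 transcripts, a release on the same build, which matched all 26 members. Python 3.11.15, numpy 2.4.6 and scipy 1.17.1 were used; scripts were tested on simulated data.

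Members and lists were chosen with earlier results of these data known. All members are named with their means; ranges over cells are given for a fixed part of them and for the 3 highest and 3 lowest ratios. Of other pathway genes above the floor, the 6 with the largest absolute ratio are named, and for each branch the 5 genes most like its score in both groups, of which 1 is not reported here. Marker lists of immune, fibroblast, endothelial, and acinar and endocrine cells had 1 of 6, 0 of 6, 0 of 5 and 0 of 5 genes above the floor. Alternatives were other means, pseudocounts, floors, scalings, cell filters and each library set left out. Ratios without a gene's highest cell, the sum of Idi1 and Gm13502, and the G1/S and Ddit3 relations were added after seeing the data.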

Additional observations from a re-analysis of the deposited data

How the results depend on the processing

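No paired analysis was possible because no result comes from a test; the groups were compared within library sets as a description only. The median ratio of the sterol branch was -1.26 with means of log2 values in place of means of TPM. The difference between the sterol and fatty acid medians, 0.17, reversed to -0.046 with means of log2 values, to -0.091 with a pseudocount of 10 and to -0.031 without the 10% of cells with the fewest genes, and it was 0.64 over members of at least 50 TPM, where Scd2 is the only fatty acid enzyme; the cause was not tested. The count of members 1.5-fold lower, 10, became 22 with means of log2 values (background 34.1%), 16 when centred on the all-gene median (17.8%), 16 with the mean of the 3 within-set ratios (10.4%), 15 with a 10% trimmed mean (12.9%), 4 with a pseudocount of 10 (5.29%), 3 of the 8 members of at least 50 TPM, 3 without cells under 1% mitochondrial share (8.51%) and 5 among cells of 10% to 40% (11.0%). Leaving out library set 1, 2 or 3 gave 15 (11.4%), 13 (12.4%) or 2 (7.08%). Without each gene's highest Ecad- or Ecad+ cell it was 14 or 8. Leaving out the highest Ecad- cell cannot raise the ratio of any gene. The matching shares of all genes are not given for the counts without a highest cell. They are also not given for the 3 of 8 members of at least 50 TPM. The count lower in each set, 12, became 24 with means of log2 values, where the median ratio of all genes above the floor was itself -0.28. It was 4 over members of at least 50 TPM, and the mean of within-set ratios gives no such count. The matching shares of all genes are not given, so these counts cannot be read as particular to the members.

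Across Ecad+ cells, the sterol score and the mitochondrial share correlated at -0.17 with TPM as deposited and at -0.079 as the mean of within-set values. With TPM as deposited the fatty acid score and the share had -0.35, and from summed TPM the fatty acid and G2/M scores had -0.23. Across Ecad- cells, the sterol and G2/M scores had 0.29 from summed TPM, 0.29 adjusted for genes above 0, 0.23 within sets, and 0.23 to 0.44 with a set left out. The fatty acid and G2/M scores had 0.25, 0.20, 0.14, and 0.12 to 0.38. With the share, the sterol score had 0.21 within sets and 0.086 without cells under 1%, and the fatty acid score 0.21 and 0.023. The median pairwise correlation of fatty acid enzymes in Ecad- cells was 0.24 to 0.36 with a set left out. The other 163 values of these results moved by less than the spread between sets or by under 1.5 times. Levels rest on TPM without counts, so low genes such as Acaca and Elovl6 have unknown precision.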

Other observations

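Across Ecad- cells both branches were lower where Ddit3, which encodes the stress factor CHOP, was higher. The Spearman correlation of the Ddit3 level with the sterol score was -0.36 over 97 cells, and -0.41, -0.65 and -0.17 within sets 1 to 3. With the fatty acid score it was -0.35, and -0.30, -0.56 and -0.26 within sets. Among the 57 Ecad- cells of at least 1% mitochondrial share the values were -0.29 and -0.28. Across 100 Ecad+ cells they were 0.00 for the sterol and -0.11 for the fatty acid score. These are descriptions across cells of 1 sample, and the difference between the groups was not tested.

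The G1/S score, from 20 replication genes, correlated with the sterol score at 0.25 in Ecad+ and 0.32 in Ecad- cells. Adjusted for the number of genes above 0 these values were 0.19 and 0.17. Within sets 1 to 3 the Ecad- values were 0.12, 0.19 and 0.41. Within Ecad+ sets 1 to 3 the values were 0.55, 0.13 and 0.15 with the sterol score. With the fatty acid score they were 0.63, 0.15 and 0.03, and 0.18 over all Ecad+ cells.

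Genes that every cell uses were seldom at 0. Actb, Gapdh, Eef1a1, Ppia and Tpt1 were above 0 in all 197 cells, and Tuba1b was at 0 in 2 Ecad- cells. Their levels were not equal in the groups, so they are no fixed reference. Means in Ecad+ and Ecad- cells were 2144 and 1082 TPM for Actb, 594 and 218 for Tuba1b, and 1474 and 1172 for Ppia. They were 1734 and 1601 TPM for Gapdh, 2086 and 2081 for Eef1a1, and 808 and 1215 for Tpt1. These 6 genes were chosen after the data were seen, and all are far more abundant than most members.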
